A study of Mus musculus with 23 samples.

Results

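SRF-VP16 was studied here in the 2 embryonic stem (ES) cell lines that keep at least one wild-type allele by their labels, wild-type E14 and E99 (+/-). Of the 23 arrays of the series, 12 belonged to these lines. The 4 arrays of cells given SRF-VP16 were set against 8 control arrays, of which 4 came from cells given the empty vector and 4 from cells given SRFdM-VP16, a plasmid the labels call a control. Each line contributed 2 arrays per plasmid, and total RNA was taken at 72 hours after transfection. The other 11 arrays came from the -/- lines E81 and E100, 4 with SRF-VP16 and 7 controls, and serve below only for comparison. Which gene the +/- and -/- marks refer to is not in the labels, and Srf itself was not analysed here, so the label of these lines could not be checked at that transcript. The labels give neither the share of cells that took up a plasmid nor whether duplicates were separate cultures, so a p-value reflects the scatter between arrays, which may be technical. All groups share the ES cell background and the transfection, and no group was left untransfected.

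Serum response factor (SRF) is a transcription factor that binds CArG boxes in the promoters of muscle, cytoskeletal and immediate-early genes. Its activity normally depends on partner proteins, the actin-sensing myocardin-related factors and the growth-factor-responsive ternary complex factors. Fusion to VP16, a strong viral activation domain, makes a bound factor activate without those partners. ES cells keep most genes of differentiated muscle nearly silent.

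Promoter sequences are shown for 5 genes on which the results turn: the skeletal, cardiac and cytoplasmic gamma-actins, which gave unlike values below, and Igfbp6 and Nppb, which rose in both lines. Each is the 130 bases before the annotated start in RefSeq (mouse build GRCm38.p6), 5′ to 3′ on the gene's strand, with a CArG box in capitals.
Acta1 (chr8:123894776-123894905, - strand): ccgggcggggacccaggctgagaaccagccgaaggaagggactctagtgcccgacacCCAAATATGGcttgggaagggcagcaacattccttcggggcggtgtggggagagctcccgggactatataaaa
Actc1 (chr2:114052876-114053005, - strand): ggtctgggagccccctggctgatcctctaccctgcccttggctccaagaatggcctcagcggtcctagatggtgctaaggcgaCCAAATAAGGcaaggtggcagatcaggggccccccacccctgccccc
Actg1 (chr11:120348496-120348625, - strand): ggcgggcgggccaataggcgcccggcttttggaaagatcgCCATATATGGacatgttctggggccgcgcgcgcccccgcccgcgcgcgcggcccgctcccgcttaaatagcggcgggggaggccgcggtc
Igfbp6 (chr15:102144056-102144185, + strand): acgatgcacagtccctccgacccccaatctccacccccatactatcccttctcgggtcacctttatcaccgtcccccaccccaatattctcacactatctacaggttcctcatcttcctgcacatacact
Nppb (chr4:147985770-147985899, + strand): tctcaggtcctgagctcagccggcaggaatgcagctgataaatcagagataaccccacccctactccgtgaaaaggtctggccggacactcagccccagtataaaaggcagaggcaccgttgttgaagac
A box was counted only as the letters CCWWWWWWGG, where W is A or T, with no mismatch. The box starts 73 bases before the start in Acta1, 47 in Actc1 and 90 in Actg1. On either strand, 535 of 32851 RefSeq promoter windows (1.629%), reaching from 250 bases before to 50 after the start, held one, and so did 96 of the 5200 measured genes with a window (1.846%). The windows printed for Igfbp6 and Nppb hold no such letters, nor does the window of Acta2, the smooth-muscle actin described below, which says only that the letters are not in this stretch.

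Signals are fluorescence intensities, 1 per probe set and array. Intensities under a floor of 58 were set to it before taking log2, so where every array of one side lay under the floor a fold is given as "at least". Array medians lay between 90 and 177. The share of values at or below 0 was highest in wild-type SRFdM-VP16 array 1 (37.9%) and the E99 SRFdM-VP16 arrays (34.1% and 38.4%), and lay between 24.6% and 26.8% in the other 9. The 5 prime over 3 prime log2 ratio of beta-actin control probes ran from -1.41 to 0.08 and was lowest in wild-type SRF-VP16 array 2, as was that of Gapdh (-0.36). Duplicates correlated at 0.917 to 0.942. ES cell identity was clear at its defining markers, with Pou5f1 between 13560 and 27868 and Sox2 between 7308 and 20482 in the 12 arrays.

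The duplicates of each group also differed in a way that ran across groups and that no label names. By that difference over all probe sets, the 12 arrays were split into 2 sets of 6, each with 1 array of every line and plasmid. The split always puts the duplicates of a group in opposite sets, so this balance is by construction. The first set held wild-type vector array 1, SRFdM-VP16 array 1 and SRF-VP16 array 2, and E99 vector array 2, SRFdM-VP16 array 2 and SRF-VP16 array 1. Ldha, a glycolytic enzyme, read 24315 to 25827 in the first set and 2987 to 10315 in the second, and Gbx2, a homeobox factor of ES cells, 1323 to 4922.5 and 95 to 443. Both genes are named after their values were seen. The sets differed at 981 of 9000 probe sets (10.9%) with line and plasmid in the fit. Since the sets were drawn from these same values, that count is raised by construction and is no test of them. The set difference itself differed between the lines at 9 (0.100%), and what the sets stand for was not tested. Since each plasmid is in both sets equally, the set does not shift a 12-array change with SRF-VP16, but it adds to the scatter, and values are given below with the set as a block and within each set. The test of whether the change with SRF-VP16 differed between sets called 0 probe sets by limma (0%, with 422 at an unadjusted p under 0.05).

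The first comparison asked what SRF-VP16 changed in both lines together, with line as a block. Egr1, Nppb and Igfbp6 were the 3 probe sets higher among 9000 tested (0.0333%), and 1 was lower (0.0111%). In all, 4 of 9000 passed a 5% false discovery rate (0.0444%), and 350 (3.89%) had an unadjusted p under 0.05, with 240 higher (2.67%) and 110 lower (1.22%). All 4 SRF-VP16 arrays lay above all 8 controls for 16 probe sets (0.178%) and below them for 9 (0.100%). In RNA pooled from a culture, more cells carrying a transcript and more transcript per cell cannot be told apart.

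Egr1, an immediate-early zinc-finger factor, had intensities of 2426 and 2816 in the wild-type SRF-VP16 arrays and 5351 and 4199 in those of E99. Its 8 controls ran from 283 to 926, with a median of 628. Every SRF-VP16 array lay above every control, and E99 was the higher line with SRF-VP16 and with controls. Egr1 rose 6.49-fold (log2 change 2.70 ± 0.22 SE, adjusted p = 0.00026), by 2.73 in wild type and 2.66 in E99.

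Nppb encodes B-type natriuretic peptide, a hormone of stressed heart muscle. It read 487 and 335 in wild type and 237 and 310 in E99 with SRF-VP16, against controls from 0 to 86.1 with a median of 58. The groups did not overlap, although the SRF-VP16 signals were dim beside those of Egr1's probe set. Nppb rose 5.18-fold (2.37 ± 0.21, adjusted p = 0.000386), a size that depends on the floor, where 4 of the 8 controls lay.

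Igfbp6 encodes a secreted protein that binds insulin-like growth factors. It read 659 and 1785 in wild type and 1621 and 936 in E99 with SRF-VP16, while its controls ran from -266 to 172. Both lines thus moved from no measurable signal in most controls to a clear one. Igfbp6 rose 16.9-fold (4.08 ± 0.38, adjusted p = 0.000463), a size that depends on the floor because 6 of 8 controls were there.

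The probe set that fell, 100246_f_at, has no gene symbol in the annotation used, and its suffix marks possible hybridisation to related transcripts. It read 50 and 29 in wild type and 54 and 35 in E99 with SRF-VP16, against 185 to 486 in the controls. It fell at least 5.07-fold (log2 change -2.34 ± 0.31, adjusted p = 0.0154). The 3 rising genes kept their calls without any 1 of the 12 arrays, while this fall lost its call without any 1 of the 4 SRF-VP16 arrays (adjusted p from 0.059 to 0.129). With vector alone as the control, 1 probe set was called (0.0111%), Egr1. With SRFdM-VP16 alone there were 15 (0.167%), 13 higher (0.144%) and 2 lower (0.0222%), all 4 of the calls above among them, and the arrays of that control held the most values at or below 0; their part in the result was not tested.

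With the array set as a block across lines, a choice made after seeing the data, the same 4 probe sets passed (4 of 9000, 0.0444%). In the first set alone the log2 changes were 2.97 for Egr1, 2.13 for Nppb, 4.48 for Igfbp6 and -2.02 for 100246_f_at. In the second they were 2.42, 2.62, 3.68 and -2.66 in the same order. For these 4, every SRF-VP16 array lay beyond every control, so 1 direction in both sets was fixed in advance. With 2 SRF-VP16 arrays against 4 controls, neither set alone gave a call. With the set as a block within each line, 10 of 9000 passed (0.111%). The added calls, all higher, were Acta1 and the actin-filament protein Csrp1 (adjusted p = 0.0173 for both) with Sfn, Itgb5, Fabp3 and Cstb, of which the last 4 are named after their values were seen.

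**Figure D1:**
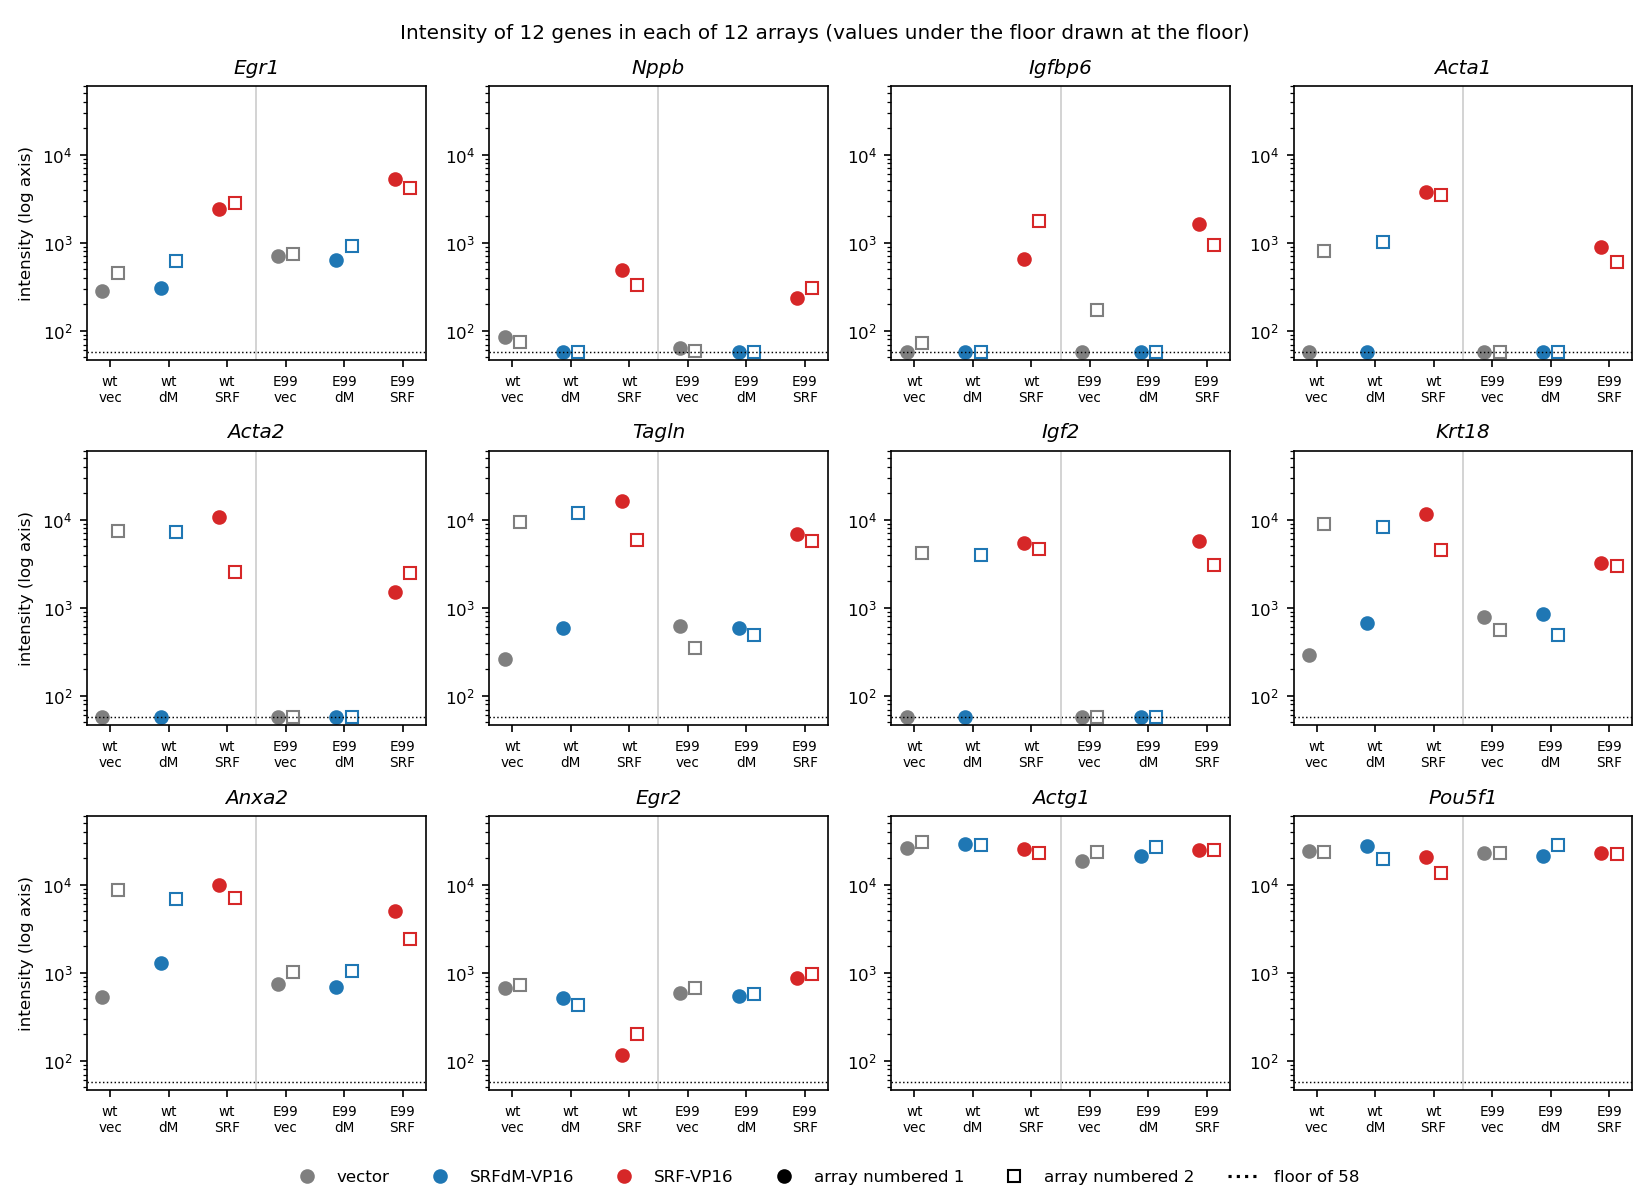
Intensity (log axis) of 12 genes in each of the 12 arrays, by line and plasmid, with filled circles for arrays numbered 1, open squares for arrays numbered 2 and a dotted line at the floor of 58. For Egr1, Nppb and Igfbp6 the SRF-VP16 arrays stand above all controls, whereas for Acta2, Tagln, Igf2 and Krt18 the wild-type controls numbered 2 stand within the range of the SRF-VP16 arrays.

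The smooth-muscle and skeletal actins had larger mean changes than Egr1 but did not pass, and 2 control arrays also carried them. Acta2, smooth-muscle actin, read 10591 and 2574 in wild type and 1492 and 2484 in E99 with SRF-VP16. The 4 E99 controls and the wild-type controls numbered 1 were at or below -22, yet wild-type vector array 2 read 7463 and wild-type SRFdM-VP16 array 2 read 7302. The change was 4.02 ± 1.30 with an adjusted p of 1. Acta1, skeletal actin, read 3770 and 3498 in wild type and 890 and 607 in E99, against 799 and 1007 in the same 2 controls and at most 49 in the other 6 (3.83 ± 0.73, adjusted p = 0.224). Acta1 did pass with the array set as a block within each line (3.83 ± 0.49, adjusted p = 0.0173), whereas Acta2 did not (adjusted p = 0.0695). Within the first array set the changes were 5.08 for Acta2 and 4.93 for Acta1, and within the second, which holds both high controls, 2.97 and 2.73.

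The smooth-muscle calponin relative transgelin (Tagln) showed the same split. It read 16237 and 5805 in wild type and 6899 and 5651 in E99 with SRF-VP16, 9417 and 11738 in the wild-type controls numbered 2, and 264 to 621 in the remaining 6 controls (2.95 ± 0.90, adjusted p = 0.943). Igf2, a fetal growth factor, read 5467, 4684, 5664 and 3031 with SRF-VP16, 4127 and 3918 in those 2 controls, and at most -22 in the other 6 by its brightest probe set (4.77 ± 1.16, adjusted p = 0.499). A second Igf2 probe set gave 0.11.

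The comparison was therefore repeated without the 2 wild-type controls numbered 2, leaving 10 arrays. Those arrays were singled out with earlier results of these data known, so for genes that are high in them the repeat raises the change by construction and is no independent support. Both lie in the second array set, so the repeat keeps 4 controls of the first set and 2 of the second and is no longer balanced over sets. With the set as a block it called 22 probe sets across lines, 19 of them shared with the 21 below, and 17 within each line, 12 shared. It called 20 probe sets higher (0.222%) and 1 lower (0.0111%), 21 of 9000 in all (0.233%, with 5.81% at an unadjusted p under 0.05), among them the 4 called with all 12 arrays. The 4 SRF-VP16 arrays lay above the 6 remaining controls for 96 probe sets (1.07%) and below them for 21 (0.233%). Of the 21 calls, 17 (81%) were higher in both omitted controls than in each of the other 6, against 665 of all 9000 (7.39%). Egr1, Nppb, Igfbp6 and 100246_f_at were not among those 17.

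Among genes of contractile filaments, Acta2 rose at least 50.9-fold without those controls (5.67 ± 0.46, adjusted p = 0.00133). Acta1 rose at least 25.1-fold (4.65 ± 0.44, adjusted p = 0.00303), and Tagln 16.7-fold (4.06 ± 0.37, adjusted p = 0.003). Csrp1, a LIM-domain protein of actin filaments, read 4353, 1653, 1438 and 1586 with SRF-VP16 and 252 to 569 in the 6 controls, and rose by 2.52 (SE 0.38, adjusted p = 0.0365). Igf2 rose at least 77.8-fold (6.28 ± 0.25, adjusted p = 7.32e-06).

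Of the 4 simple epithelial keratins described here, which form the intermediate filaments of early epithelia, 3 were among the calls of the repeat: Krt8, Krt18 and Krt19 passed, and Krt7 did not (2.32, adjusted p = 0.145). Krt18 read 11458, 4549, 3237 and 2987 with SRF-VP16 and 291 to 857 in the 6 controls (3.01 ± 0.43, adjusted p = 0.0287). Its partner Krt8 read 7893, 6117, 3010 and 1508 against 637 to 981 (2.10 ± 0.29, adjusted p = 0.0232). Krt19 rose at least 15.4-fold (3.95 ± 0.48, adjusted p = 0.0128). With the array set as a block within each line none of the 3 passed (adjusted p = 0.0574 for each). For all 3, wild-type SRF-VP16 arrays were brighter than those of E99.

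Anxa1, a calcium-dependent phospholipid-binding protein, rose by 4.04 and 2.05 by its 2 probe sets (each adjusted p = 0.00822), and Anxa2 by 2.58 (adjusted p = 0.0287). Ccn2, a matricellular protein also known as connective tissue growth factor, read 3829, 2503, 1671 and 2711 with SRF-VP16 and 105 to 535 in the 6 controls (3.45 ± 0.50, adjusted p = 0.0287). Col4a1, a chain of basement-membrane collagen, rose by 2.21 (adjusted p = 0.00636), and Crybg1, a crystallin-domain protein, by 2.18 (adjusted p = 0.0188). Tapbp, which helps load peptides on class I molecules, rose by 1.44 (adjusted p = 0.035). In Tapbp, as in Egr1, all 4 SRF-VP16 arrays (860 to 1147) also exceeded both omitted controls (804 and 689), but with all 12 arrays its change of 1.20 did not pass (adjusted p = 0.487), and its dimmer second probe set gave 0.56. Probe sets 97047_f_at with no symbol (1.89) and 104735_at with several (1.24) complete the count. With the array set as a block within each line, Ccn2 (adjusted p = 0.0601), Crybg1 (0.0574), Anxa2 (0.068), Tapbp (0.128), 104735_at (0.0938) and 100246_f_at (0.068) also missed the threshold, and across lines Anxa2 (0.0503) and Tapbp (0.059) did. Csrp1, Ccn2, Crybg1, Tapbp and the second Anxa1 probe set are named after their values were seen, because the repeat called them.

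In wild type, Egr1 read 449 and 624 in the omitted controls against 283 and 303 in the controls numbered 1, and Igfbp6 72 and 40 against 24.6 and -73. Summed trophoblast markers (6 measured of a list that has Cdx2, Gata3 and Eomes) were 296 and 522 in those 2 arrays, 155 to 317 in the other 6 controls and 288 to 518 with SRF-VP16. Summed primitive-endoderm markers (8 measured) were 1189 to 1645, 883 to 1555 and 1093 to 1489. Foxa2 was below 0 in all 12 arrays, and Afp and Ttr were never above the floor except Afp at 62. Gata4 (182 to 653), Sox7 (74 to 718.2) and Dab2 (76 to 449) lay above the floor in all 12 arrays. Summed fibroblast markers (6 measured) were 296 to 586, 116 to 427 and 235 to 408, with Col1a2 below 0 in every array. Over the 12 arrays Lum read 53 to 193.7, Col3a1 12 to 251 and Dcn -14 to 206. The part of these cell types in the results was not tested.

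**Figure D2:**
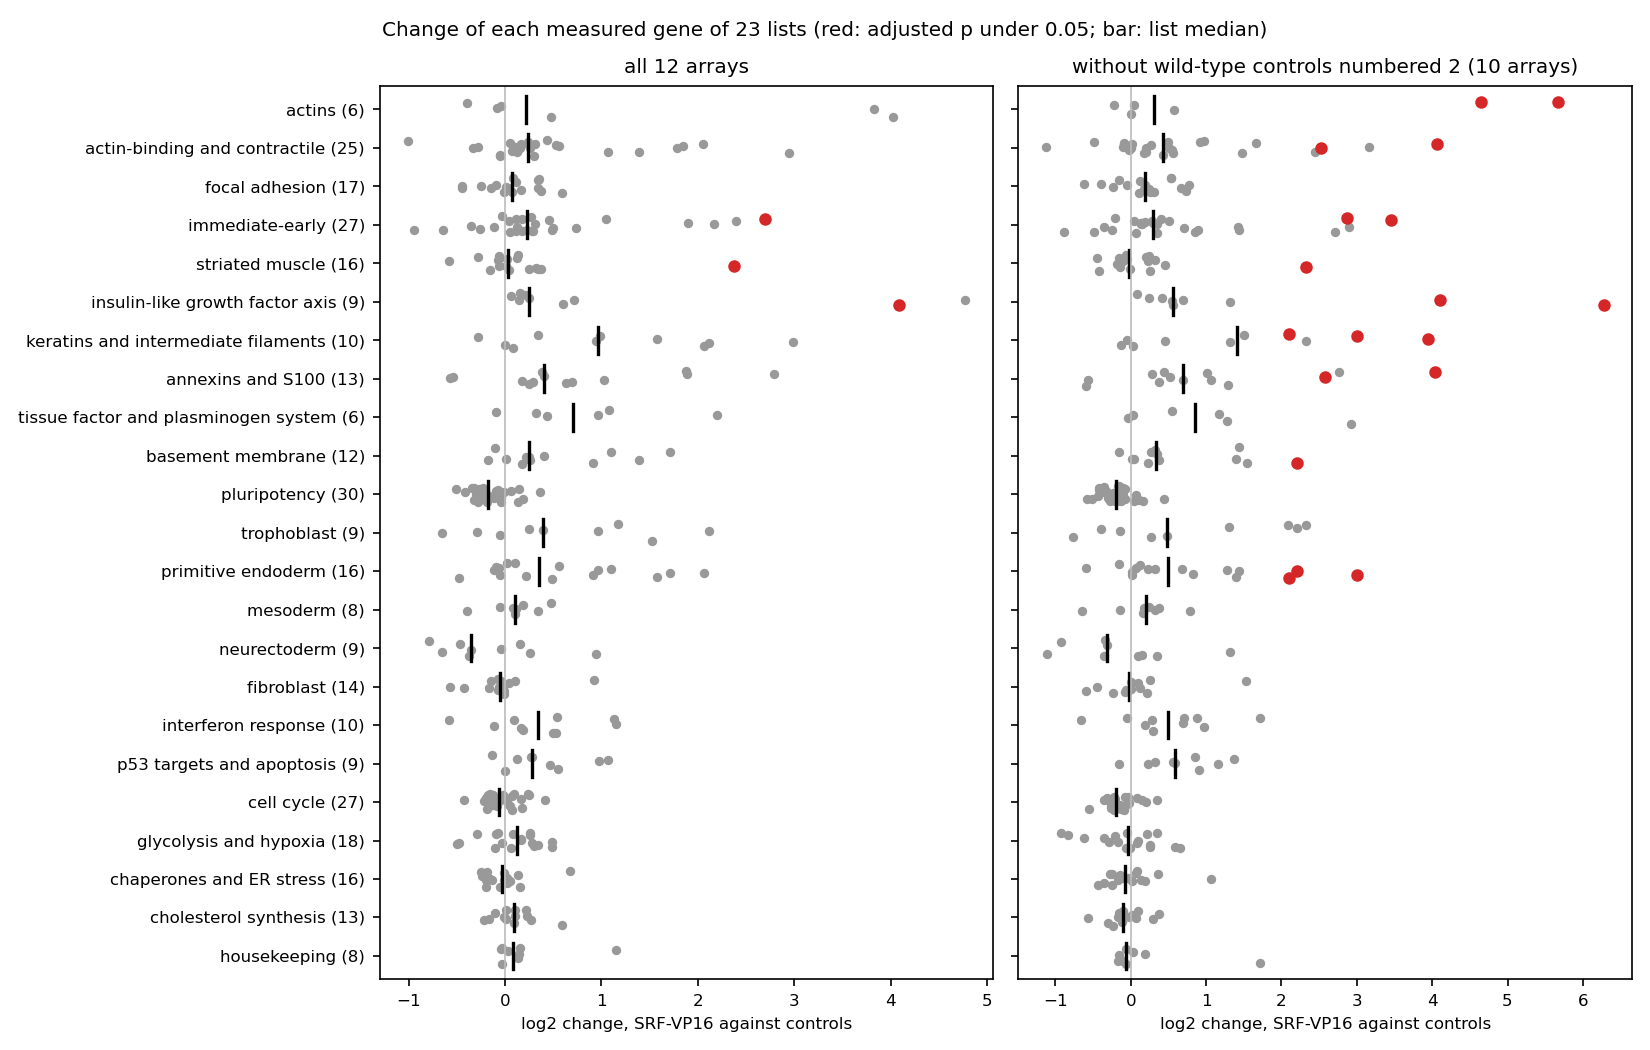
Log2 change (SRF-VP16 against controls) of each measured gene of 23 lists, with all 12 arrays on the left and without the wild-type controls numbered 2 on the right. Red points passed an adjusted p of 0.05 and bars mark list medians. Keratins have the highest list median in both panels (0.97 and 1.41), and the lists of pluripotency, cell-cycle and housekeeping genes lie close to 0.

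By list, the actins gave unlike values by isoform, and the difference between isoforms was not tested. With all 12 arrays none of the 6 measured was called, with a median of 0.22 against 0.01 over all probe sets tested, and 2 rose in the repeat, Acta1 and Acta2. Actg1, cytoplasmic gamma-actin, read 25143, 23026, 24584 and 24829 with SRF-VP16 and 18604 to 30085 in controls, a difference of -0.04 ± 0.12. Actb gave -0.39 and the enteric Actg2 -0.08, both uncalled. Cardiac actin differed by probe set: 101028_i_at read 143, 454, 200 and 82 with SRF-VP16 and at most 30 in controls, without overlap (at least 3.11-fold higher, adjusted p = 0.224), while 101029_f_at, which can hybridise to related actins, gave 0.48. The Acta1, Actc1 and Actg1 windows printed above each hold an exact CArG box, while the longer Acta2 window that was searched holds no exact one. Boxes with a mismatch were not searched for, so Acta2 may hold such a box.

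Of 25 measured actin-binding and contractile genes none was called with all arrays (median 0.24), and in the repeat 2 rose, Tagln and Csrp1. Fhl2, a LIM-domain cofactor, gave 1.39 (adjusted p = 0.943), the calponin Cnn1 1.79 and the filament-severing gelsolin Gsn 2.05. Focal-adhesion genes barely moved as a list, with a median of 0.07 over 17 genes and 0 calls in both fits. Their anchor protein vinculin (Vcl) gave 0.34, and alpha-actinin 1 (Actn1) 0.60. In wild-type SRF-VP16 array 2, the array with the lowest 5 prime over 3 prime ratios, Vcl read 1155, Actg2 3242 and Acta2 2574, against 3206, 9257 and 10591 in its duplicate. Acta1 read 3498 there against 3770, and Egr1 2816 against 2426. The duplicates also lie in different array sets. The parts of RNA quality and of the array set in these values were not tested.

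Among 27 immediate-early genes Egr1 was the call with all arrays, and Egr1 and Ccn2 in the repeat. The median was 0.23 and 21 of 27 changes were above 0, against 4610 of 9000 over all probe sets. Ccn1, the other matricellular early gene, read 2000, 610, 436 and 566 with SRF-VP16 and 43 to 165 in the 6 controls (repeat 2.89, adjusted p = 0.0526). Fos (0.50) and Jun (1.05) did not pass. Nppb was the call among 16 striated-muscle genes (median 0.03), and Igfbp6 that among 9 genes of the insulin-like growth factor axis (median 0.25), all 9 of which had changes above 0.

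Keratins and other intermediate filaments had a median of 0.97 over 10 genes with none called with all arrays and 3 in the repeat. Krt7 read 657 and 911 in wild type and 185 and 105 in E99 with SRF-VP16, against 177 and 163 in the omitted controls and below 0 in the other 6 (2.11 ± 0.42, adjusted p = 0.24). Annexins and S100 genes had a median of 0.41 over 13, with 2 calls in the repeat. The tissue factor and plasminogen genes had 0.70 over 6 with 0 calls, among them tissue factor itself (F3, 2.20) and the urokinase receptor Plaur (1.08). Basement-membrane genes had 0.25 over 12. Nidogen (Nid1), a basement-membrane linker, read 300, 236, 218 and 134 with SRF-VP16 and -59 to 130 in controls, without overlap but uncalled (1.39, adjusted p = 0.398).

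Pluripotency genes lay slightly below 0. Of 30 measured, 25 had changes below 0 and none was called in either fit, with medians of -0.18 with all arrays and -0.20 in the repeat. Over all probe sets tested, 4610 of 9000 changes were above 0. The medians were -0.28 in wild type and 0.00 in E99, against -0.07 and 0.08 over all probe sets tested. In wild type 5 of the 30 had both SRF-VP16 arrays below all 4 controls, where 427 of 9000 probe sets (4.74%) did, and in E99 2 did (background 1.18%). Sox2 gave -0.50, Pou5f1 -0.28, Klf2 -0.30 and the ES cell growth factor Fgf4 -0.22, each with an adjusted p of 1. Cell-cycle (-0.06 over 27), chaperone (-0.03 over 16), cholesterol-synthesis (0.09 over 13), glycolysis (0.12 over 18) and housekeeping (0.08 over 8) genes had 0 calls in both fits. So had mesoderm (0.11 over 8), neurectoderm (-0.35 over 9), fibroblast (-0.05 over 14), interferon-response (0.35 over 10), p53-target (0.29 over 9) and trophoblast (0.39 over 9) genes. Primitive-endoderm genes (0.35 over 16) had 3 calls in the repeat, which were Krt8, Krt18 and Col4a1 named above.

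The E99 controls lay below both SRF-VP16 arrays for Tagln (350 to 621 against 6899 and 5651) and Krt18 (496 to 857 against 3237 and 2987). In E99, 657 of 9000 probe sets (7.30%) had both SRF-VP16 arrays above all 4 controls, against 106 (1.18%) below. In wild type 258 (2.87%) lay above and 427 (4.74%) below. By list, such separation upwards in E99 held for 4 of 6 actins, 8 of 25 actin-binding genes, 7 of 27 immediate-early genes, 5 of 10 keratins, 5 of 13 annexins and S100 genes, 5 of 12 basement-membrane genes and 0 of 30 pluripotency genes. The E99 control SRFdM-VP16 arrays were among those with most values at or below 0, and their part in these counts was not tested.

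A fit of the 6 E99 arrays alone, which holds no wild-type control, called 24 of 9000 probe sets, all higher (0.267%). The filter that chose the 9000 had still used the wild-type arrays. For many of the 24, all 4 E99 controls were set to the floor and so had no scatter. The adjusted p of those calls therefore depends on the floor. All 4 E99 controls lay under the floor for Igf2, Acta2 and Acta1, which rose at least 71.4-fold (adjusted p = 0.00932), at least 33.2-fold (adjusted p = 0.0113) and at least 12.7-fold (adjusted p = 0.0119). Tagln rose by 3.64 (SE 0.27, adjusted p = 0.0151). Anxa1 rose by 3.18 by its brighter probe set and at least 3.63-fold by the other, Egr1 by 2.66 and Nppb by 2.18. Igfbp6 read 4.02 but did not pass in that fit (adjusted p = 0.146). The transcription factor Tfap2a (1.66) and the carnitine acetyltransferase Crat (1.49) were among the other calls, named here after their values were seen. A fit of the 6 wild-type arrays alone called 0 probe sets, with 311 at an unadjusted p under 0.05.

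With 1 effect per line in the 12-array fit, wild type had 6 calls (0.0667%), 5 of them higher (0.0556%), and E99 had 1, Egr1 (0.0111%, adjusted p = 0.0417). The wild-type calls were Egr1, Nppb and Igfbp6 together with 3 genes named after their values were seen. Tgfb1, a growth factor, read 163 and 262 in wild type with SRF-VP16 and below 0 in all 8 controls and both E99 SRF-VP16 arrays (at least 3.56-fold higher in wild type, adjusted p = 0.00826). Efnb1, an ephrin ligand, read 151 and 128 against at most 49.1 in wild-type controls and rose at least 2.40-fold (adjusted p = 0.0266). Fkbp1a, an immunophilin, read -27 and 21 with SRF-VP16 against 419 to 797 in wild-type controls and fell at least 10.1-fold (adjusted p = 0.00826), and in E99 it gave -0.63. Since arrays set to the floor have no scatter, the adjusted p of each of these 3 genes depends on the floor.

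**Figure D3:**
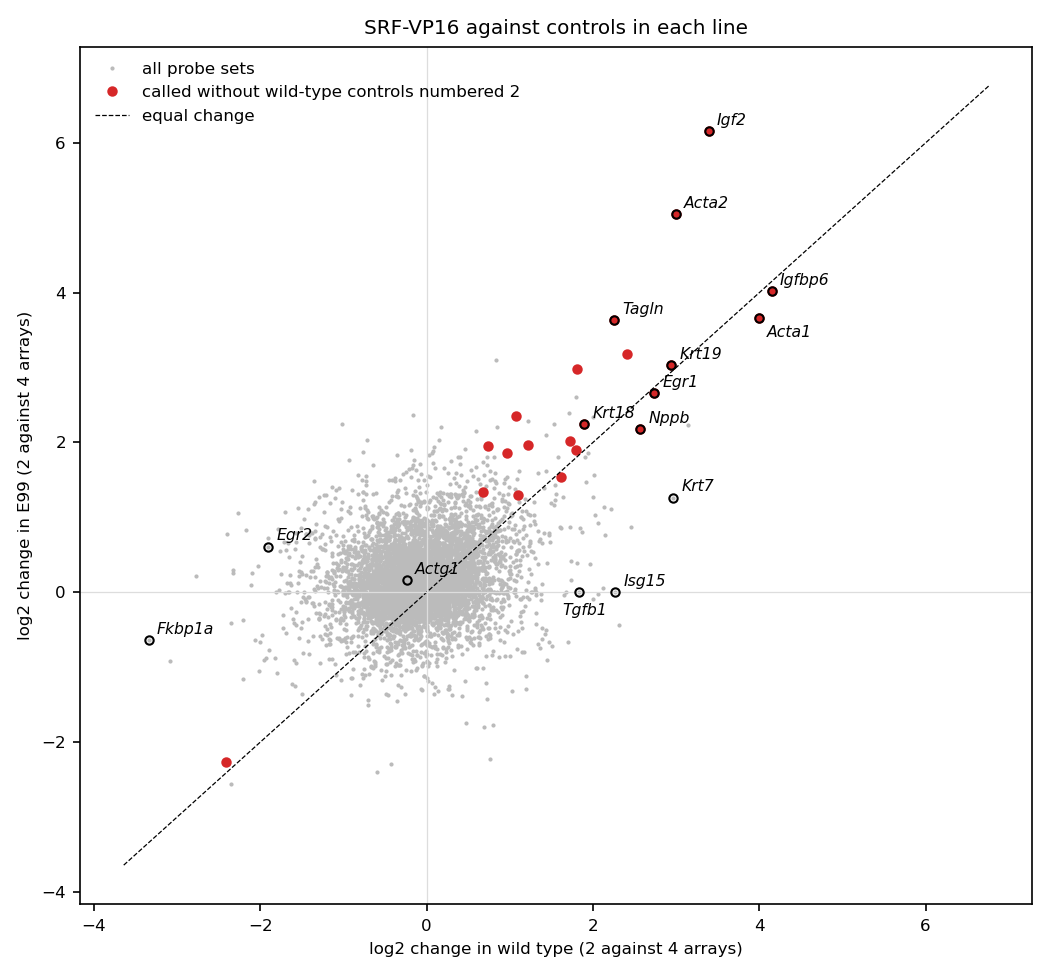
Log2 change with SRF-VP16 in wild type (horizontal) and in E99 (vertical), each 2 against 4 arrays, with 1 point per probe set, red for the 21 called without the wild-type controls numbered 2 and a dashed line for equal change. Egr1, Nppb, Igfbp6 and Acta1 lie near the dashed line, Igf2, Acta2 and Tagln above it, and Egr2 on opposite sides of 0 in the lines.

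The test of the difference between the lines called 0 of 9000 probe sets by limma, where 201 (2.23%) had an unadjusted p under 0.05. The differences, E99 minus wild type, were -0.07 ± 0.46 for Egr1, -0.38 ± 0.43 for Nppb, -0.13 ± 0.81 for Igfbp6 and -0.33 ± 1.53 for Acta1, so the actin's is poorly bounded. For Acta2 it was 2.06 and for Igf2 2.77, in both cases with the 2 high wild-type controls in the wild-type term. Egr2, an Egr1 relative, read 118 and 201 with SRF-VP16 in wild type, below its controls (427 to 735), and 865 and 962 in E99, above its controls (547 to 674). The lines thus lay on opposite sides of their controls, with a difference of 2.52 ± 0.48 that did not pass over all probe sets by limma (adjusted p = 1). Isg15, a ubiquitin-like interferon-response protein, read 88 and 890 in wild type with SRF-VP16 and below the floor in the other 10 arrays (adjusted p = 1 for the difference, which has no size where E99 is under the floor throughout).

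The 2 controls were compared next, since they were pooled. SRFdM-VP16 against vector gave 0 calls by limma in these lines, where 949 probe sets (10.5%) had an unadjusted p under 0.05, with 871 lower (9.68%) and 78 higher (0.867%). The median over all probe sets was -0.21, and 0.26 once arrays were scaled to a common median, so the direction of this shift depends on scaling. The differences were 0.18 ± 0.31 for Egr1, -0.28 ± 0.11 for Nppb and -0.47 ± 0.34 for Igfbp6. Among other SRF-linked genes they were -0.97 ± 0.43 for Fhl2, -0.63 ± 0.22 for Fos, 0.68 ± 0.64 for Jun and 0.65 ± 1.32 for Ccn2. Those of Acta1 (0.08 ± 1.08) and Acta2 (-0.01 ± 1.91) are poorly bounded. None of these 9 passed (adjusted p from 0.435 to 1), which does not show that the controls act alike.

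The effect was then set against that in the -/- lines, in one fit of all 23 arrays. The difference passed for 35 of 9653 probe sets (0.363%, with 7.98% at an unadjusted p under 0.05), 31 with a higher change in the -/- lines (0.321%) and 4 with a lower one (0.0414%). The 3 genes that rose here rose further there. Igfbp6, with all 7 controls of the -/- lines under the floor, changed by at least 8.32 there against 4.08 here (difference 4.24 ± 0.45, adjusted p = 2.12e-05), Egr1 by 6.82 against 2.70 (4.12 ± 0.71, adjusted p = 0.0074) and Nppb by 6.13 against 2.37 (3.76 ± 0.37, adjusted p = 1.28e-05). With SRF-VP16 Egr1 reached 7648 to 22881 in the -/- lines, and its controls there had a mean of 156 ± 181 (SD, n = 7), against 585 ± 225 (SD, n = 8) here. The array sets ran through the -/- lines too (Ldha 22699 to 26960 in 6 arrays and 5984 to 11361 in 5), and with the set as a block the count rose from 35 to 69 across lines and 115 within each line, with all 35 kept in both.

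Several genes that rose in the -/- lines gave smaller or opposite values here. Actg1 changed by 1.71 there and -0.04 here (1.75 ± 0.23, adjusted p = 0.000363), and its controls differed too, 7159 to 14870 in the -/- lines and 18604 to 30085 here. Egr2 changed by 3.54 there and -0.65 here (4.18 ± 0.53, adjusted p = 0.000292), a value here that averages the 2 opposite lines. Actc1 by probe set 101029_f_at changed by 3.60 and 0.48 (3.12 ± 0.42, adjusted p = 0.000604). Its other probe set, 101028_i_at, rose at least 6.72-fold there and at least 3.11-fold here, with all controls under the floor on both sides. That difference was not among the 35 that passed. Inhba, an activin subunit, changed by 4.21 and -0.33 (4.54 ± 0.73, adjusted p = 0.00374), and Isg15 by 5.52 and 1.14 (4.39 ± 0.75, adjusted p = 0.00628). Keratin 17 (Krt17) by probe set 92862_f_at, which can hybridise to related keratins, changed by 6.56 and 1.43 (5.13 ± 0.81, adjusted p = 0.00331), and by its brighter probe set the difference of 3.73 did not pass (adjusted p = 0.103). Krt17 and another 3 genes are named after their values were seen: the retinoic-acid carrier Crabp2 (4.62 and 0.46, adjusted p = 1.12e-05), slow troponin C (Tnnc1, 4.08 and 0.05, adjusted p = 1.28e-05) and the myosin light chain Myl9 (3.64 and 0.12, adjusted p = 0.0127). For Isg15, Tnnc1 and 92862_f_at all 7 controls of the -/- lines lay under the floor, so their changes there are lower bounds. Here all 8 controls of Isg15 and Tnnc1 lay under it too, with 2 and 3 of the 4 SRF-VP16 arrays. For Myl9 5 of 8 controls and 2 of 4 SRF-VP16 arrays did, for 92862_f_at 6 and 2, and for Crabp2 7 controls. The sizes of these changes here thus depend on the floor. Crabp2 read at most 128 in any of the 12 arrays here and 1169 to 2037 with SRF-VP16 in the -/- lines.

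Lower changes in the -/- lines were fewer. Klf2, a pluripotency factor, changed by -2.34 there and -0.30 here (-2.04 ± 0.40, adjusted p = 0.0205). The Golgi protein Yipf4 changed by -2.99 and 0.12 (-3.10 ± 0.60, adjusted p = 0.0191), the zinc-finger gene Zfp982 by -1.25 and -0.16 (adjusted p = 0.0445) and the kinetochore gene Cenpc1 by -2.05 and 1.35 (adjusted p = 0.049). For Acta1 (7.40 and 3.83) the difference of 3.57 ± 0.85 did not pass (adjusted p = 0.0902).

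**Figure D4:**
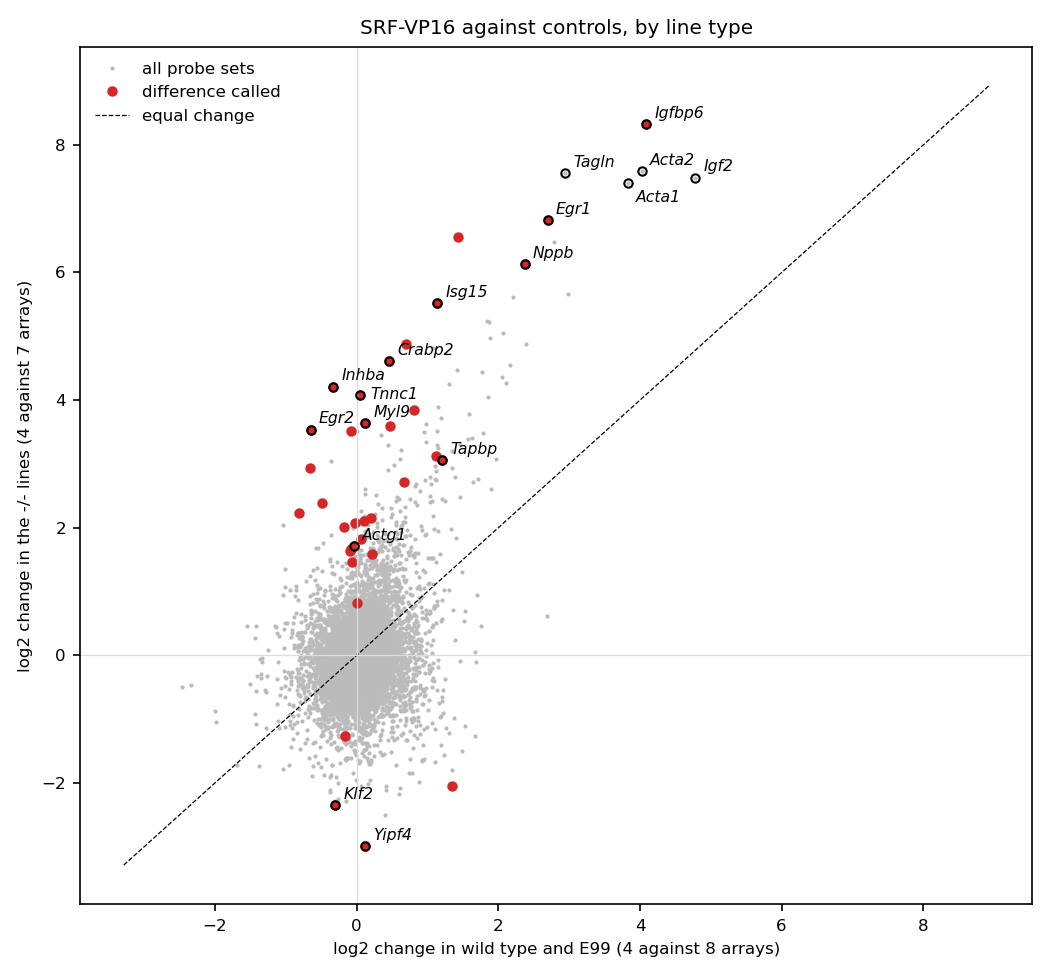
Log2 change with SRF-VP16 in wild type and E99 together (horizontal) and in the -/- lines (vertical), with 1 point per probe set, red where the difference passed and a dashed line for equal change. Igfbp6, Egr1 and Nppb lie far above the line, and Actg1 (-0.04), Tnnc1 (0.05), Myl9 (0.12), Crabp2 (0.46) and Egr2 (-0.65) rise in the -/- lines at small or opposite changes here. For Tnnc1, Myl9 and Crabp2 most arrays here lay under the floor, so the sizes of their changes here depend on it.

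In the -/- lines 419 of 9653 probe sets were called (4.34%), 313 higher (3.24%) and 106 lower (1.10%). Of the 4 calls here 3 were also higher there, which is 75% of the 4 and 0.716% of the 419. Of the 21 calls of the repeat 18 were, which is 85.7% and 4.30%. The 313 probe sets higher in the -/- lines had a median change of 1.64 there. The 287 of them tested here had a median of 0.35 (0.49 in the repeat), with 247 of the same sign and 63 at an unadjusted p under 0.05. The 106 lower ones had medians of -1.12 there and -0.13 here, with 72 of the same sign. Over all 9000 probe sets tested here, 4610 changes were above 0, and 240 (2.67%) were higher at an unadjusted p under 0.05 by limma. The promoter windows of 4 of 26 genes with a larger change in the -/- lines (15.4%) held a CArG box (Egr2, Actg1, Actc1 and Myl9), as did 2 of 13 with a window among the genes called in the repeat (15.4%, Acta1 and Igf2), beside 1.846% of all measured genes with a window. A gene counted if any of its windows held a box, and in Igf2 not every window did. Windows of Fhl2, Vcl and Fhl1, which were called neither with all arrays nor in the repeat, held a box as well. Whether a box goes with a call was not tested. Egr1 and Tagln had no window in the source used, so they were not searched for a box.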

How the data were processed

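Total RNA of mouse ES cells was hybridised to 1-colour oligonucleotide arrays. The authors' deposited series table holds 1 intensity per probe set and array, on a linear scale with values below 0. Neither the scanner software nor the scaling is named in the sources at hand. Of 12502 probe sets, 66 controls were left out. Intensities below 58, the 40th percentile of all 23 arrays, were set to 58 and log2 was taken. Probe sets above the 40th percentile of their own array in at least 2 of the 12 arrays were tested, 9000 in all. The deposited intensities were not rescaled. Gene names came from platform annotation: 10141 probe sets have 1 symbol, 362 several and 1933 none, and of a gene's probe sets the brightest stands for it in lists.

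Effects were fitted with limma 3.58.1 in R 4.3.3 (lmFit, eBayes with an intensity trend), with line as a block and a Benjamini-Hochberg threshold of 5% over all probe sets, two-sided. The difference between lines and that from the -/- lines were interaction terms, the latter over 23 arrays and 9653 probe sets. The number of arrays limits the precision, with 9 residual degrees of freedom for 12 arrays and 7 for 10. Scripts were tested on simulated data. Genes named are the calls with all arrays, up to 4 called or 2 top genes per list, the 5 largest differences in each direction past 5% (by each gene's brightest probe set), and a short fixed set. That set held SRF-linked genes, ES cell genes, and Igfbp6, Igf2, F3, Krt8 and Krt18. Other genes are marked in the text. The comparison, members and the 23 lists were chosen with earlier results of these data known. Alternatives varied normalization, floor, transform, filter, trend, control, line, replicate block and each left-out array. An array set block was added after seeing the data. The 12 arrays were split by the sign of the leading eigenvector of the correlations between duplicate differences, and the -/- arrays were placed by their deviation from their line's mean along the difference between the sets; E100 SRF-VP16 array 1 lay nearest the boundary.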

Additional observations from a re-analysis of the deposited data

Results flagged for a closer look

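The effect of SRF-VP16 differed between the -/- lines and wild type with E99, by an interaction term, for 14 named genes. As log2 difference (-/- minus wild type and E99), those with larger changes in the -/- lines were Inhba 4.54, Isg15 4.39, Igfbp6 4.24, Egr2 4.18, Crct1 4.18, Egr1 4.12, Nppb 3.76, Actc1 3.12, Tapbp 1.86 and Actg1 1.75. The Actc1 value is that of 101029_f_at, and its other probe set was not called. Those with lower changes were Cenpc1 -3.39, Yipf4 -3.10, Klf2 -2.04 and Zfp982 -1.09. Crct1 encodes a cysteine-rich protein of cornified epithelia and changed by 4.88 in the -/- lines and 0.70 here. For Egr2, E99 minus wild type was 2.52, picked out since both SRF-VP16 arrays lay below all controls in wild type and above all controls in E99. Its interaction term did not pass over all probe sets by limma (adjusted p = 1).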

How the results depend on the processing

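The 4 calls over both lines became 2 under an inverse hyperbolic sine, 15 with SRFdM-VP16 alone as control, 1 with vector alone, 0 in wild type alone, 24 in E99 alone, 21 without both wild-type controls numbered 2, 10 with the array set as a block within line, and 3 to 7 without any 1 array (7 without E99 SRF-VP16 array 2). Egr1 kept its call in 29 of 30 other settings, Igfbp6 in 26 and Nppb in 25; Acta1 passed in 4 and Acta2, Tagln and Igf2 in 2 each, and in none of the 12 that left out 1 array. The 21 calls without those controls became 6 with the floor at 299 (the 60th percentile), 12 and 10 with the replicate block across lines and within line, and 10 to 22 without any 1 array (10 without wild-type SRFdM-VP16 array 1, 12 without E99 SRF-VP16 array 1 and 13 without E99 SRFdM-VP16 array 2). The 0 calls between lines became 2 with that floor, 4 with no filter, and 0 to 7 without any 1 array (7 without wild-type SRF-VP16 array 2, 3 without array 1). The 35 differences from the -/- lines became 74 after quantile normalization, 55 with the higher floor, 14 under the inverse hyperbolic sine, 69 and 115 with the array set as a block across lines and within line, and 25 to 53 without any 1 array (53 without E81 SRF-VP16 array 1). SRFdM-VP16 against vector went from 0 calls to 1 after scaling to array medians, 5 with no filter and 5 with no trend. No result changed direction past its threshold in these settings, and the causes of these shifts were not tested. Scaling to array medians moved the median of all probe sets to -0.11 over both lines and -0.17 in the repeat, so changes of that size have no settled sign. Array numbers did not pair the samples: deviations of same-numbered arrays correlated at -0.39 to 0.42 over 15 pairs of groups, above 0.1 in 6. Turned by array set instead, the differences between duplicates correlated at 0.154 to 0.420 in all 15; the sets come from the data and not the labels, and the set block was added after seeing the data. It left 0 calls between lines and for SRFdM-VP16 against vector. The replicate block gave 5 and 6 calls over both lines, 0 between lines, and 32 and 34 from the -/- lines. Signals under 58 have no order, which limits folds of Igfbp6, Nppb, Acta1, Acta2 and Igf2.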
